A study of Mus musculus with 30 samples.

Results

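The expression of matrix genes in descending thoracic aortas of mice with vascular Ehlers-Danlos syndrome (VEDS) was examined in 12 libraries, 6 from untreated mice and 6 from mice given hydralazine, of 30 libraries in the series. VEDS mice are heterozygous for a missense allele of *Col3a1*, the gene of type III collagen, and their wild-type counterparts served as controls. No label divides the 12 libraries further, and the 2 classes compared here were made from the data: the libraries were grouped by the level of *Col3a1* itself, above or below 10000 CPM (counts scaled to a common library total). The class above the cut is called matrix-high and the class below it matrix-low, with 6 libraries in each, 3 untreated and 3 hydralazine. Since the same RNA made the classes and is described by them, differences between the classes are given with their size and spread and without a test, and *Col3a1* is left out of every count of separated genes. It remained among the genes of the tests between labelled groups and of the test of genotype by class.

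Each library came from 1 male mouse on the C57BL/6J background, the vessel having been perfused with saline. The labels say that the adventitia, the outer connective tissue layer, was stripped off, whereas the study's methods mention only the removal of perivascular fat. Hydralazine, a blood pressure lowering drug, was given in the drinking water at 32 mg/kg/day from birth. A further 6 VEDS libraries came from mice harvested at day 60 that received hydralazine with either bicalutamide, an antiandrogen, at 50 mg/kg/day (HB, 3 libraries) or spironolactone, a mineralocorticoid receptor blocker that is also antiandrogenic, at 100 mg/kg/day (HS, 3 libraries), both added at day 21. The remaining 12 libraries came from untreated or hydralazine-treated controls. For the untreated and hydralazine mice the protocol names harvest at day 30 or day 60 and the labels do not say which library is which, so age and class cannot be told apart. The mouse numbers in the labels also moved with the class: in the untreated group the 3 matrix-high mice had higher numbers than the 3 matrix-low mice, and the 3 matrix-high hydralazine mice had consecutive numbers. Extraction batches were not labelled by library.

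The wall of the aorta is built by smooth muscle cells, which secrete fibrillar collagens for tensile strength and elastin for recoil early in life, and later carry mainly a contractile program. Fibrillar collagen is made as procollagen, folded and hydroxylated in the endoplasmic reticulum, trimmed outside the cell and cross-linked by lysyl oxidases. Elastin is deposited on a scaffold of fibrillin microfibrils, largely around birth and in juvenile life, when vascular cells also still divide.

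*Col3a1* stood at 13593, 16785 and 17657 CPM in the matrix-high untreated libraries and at 14836, 15190 and 15432 CPM in the matrix-high hydralazine libraries. The matrix-low libraries held 4889, 5261.6 and 5543.6 CPM without treatment and 5506.7, 5703.7 and 7508 CPM with hydralazine. The members nearest the cut were therefore at 7508 CPM below it and 13593 CPM above it, and a cut at 8000 or 12000 CPM gave the same classes. The controls fell to both sides of the same value, 6 above it at 14724 CPM or more and 6 below it at 7652.4 CPM or less, while the 6 HB and HS libraries lay between 5173.1 and 7413 CPM.

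The libraries held 5517510 to 8293289 expected counts, and the smooth muscle markers that define the labelled tissue were present throughout. Their sum was 16640 to 21380 CPM in the matrix-high libraries and 22580 to 29600 CPM in the matrix-low libraries, without overlap. RNA of liver cells was uneven: the sum of 10 hepatocyte markers ran from 1405 to 18260 CPM in the matrix-high and from 182.5 to 6989 CPM in the matrix-low libraries. No single marker separated the classes over all 12 libraries. Within hydralazine the sum did separate them, at 7962, 9689 and 13830 CPM in matrix-high against 2256, 2629 and 3030 CPM in matrix-low. The untreated libraries overlapped, at 1405, 3434 and 18260 CPM against 182.5, 1661 and 6989 CPM. Brown adipocyte markers summed to 556.2 to 1315 CPM against 232.7 to 813.2 CPM and erythroid markers to 272.6 to 1264 CPM against 321.1 to 690.8 CPM. Of the 8 fibroblast markers 3 were higher and 1 lower in the matrix-high libraries, while none of 10 macrophage and none of 8 endothelial markers were separated, and 9 of 10 lymphocyte markers were too low to be tested. Cardiomyocyte markers summed to 150.2 to 188.1 CPM against 191.1 to 255.8 CPM, without overlap, and *Ryr2*, which smooth muscle also expresses, was the 1 of 7 that was separated, as lower. Most of the 7 did not follow the sum: 5 had a positive and 2 a negative log2 fold change, with a median of 0.215. In bulk tissue, fewer cells of a type and less RNA per cell cannot be told apart. The part of these signals in the differences below was not tested. The 2 libraries with the most hepatocyte RNA were both matrix-high. Leaving them out, an alternative chosen after seeing the data, gave 592 higher and 609 lower genes in place of the counts below. Fewer libraries make a lack of overlap easier to reach. With all 12 libraries and the hepatocyte sum as covariate, also chosen after seeing the data, the counts were 437 and 462.

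A gene was called separated when all 6 matrix-high libraries lay on one side of all 6 matrix-low libraries in normalised CPM and the log2 fold change, fitted with treatment as a covariate, was at least 0.25. Of 13309 genes 421 were higher (3.16%) and 500 lower (3.76%) in the matrix-high libraries, and 135 more genes did not overlap but changed by less than 0.25. The higher genes changed by more: 154 of them and 44 of the lower genes had a log2 fold change of at least 1 in size, and 33 and 7 of at least 2. The balance between the directions depends on the scale. On the deposited TPM values 1119 genes were higher and 152 lower, so that 88% rather than 45.7% of separated genes were higher, and the median of all genes moved by 0.18 on the log2 scale. The small RNAs *Rn7s1*, *Rn7s2* and *Rn7sk* took 69.6 to 72.5% of TPM in the matrix-high and 73.2 to 76.2% in the matrix-low libraries, against 10.1 to 11.2% and 11.6 to 13.6% of the counts. Small differences below are therefore relative to the median gene in normalised CPM, and lower genes that were not separated in TPM are named as such.

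*Eln* and *Mki67* were given as markers together with the classes, so their separation is no independent support for the classes. Both remain in the counts of separated genes. *Eln*, which encodes elastin, followed the classes in every library. It was measured at 10991, 12890 and 14227 CPM (lowest, median and highest) in the matrix-high and at 2662, 3756 and 6404 CPM in the matrix-low libraries, a log2 fold change of 1.68 ± 0.13 (SE, n = 6 and 6) or 3.21-fold. *Mki67*, a marker of dividing cells, was at 65.5, 67.8 and 95.5 CPM against 7.91, 17.3 and 25.5 CPM, a difference of 2.17 ± 0.17 or 4.49-fold. Neither gene overlapped between the classes, and in both the matrix-low hydralazine library of replicate 1, the one nearest the *Col3a1* cut, was the highest of its class.

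**Figure D1:**
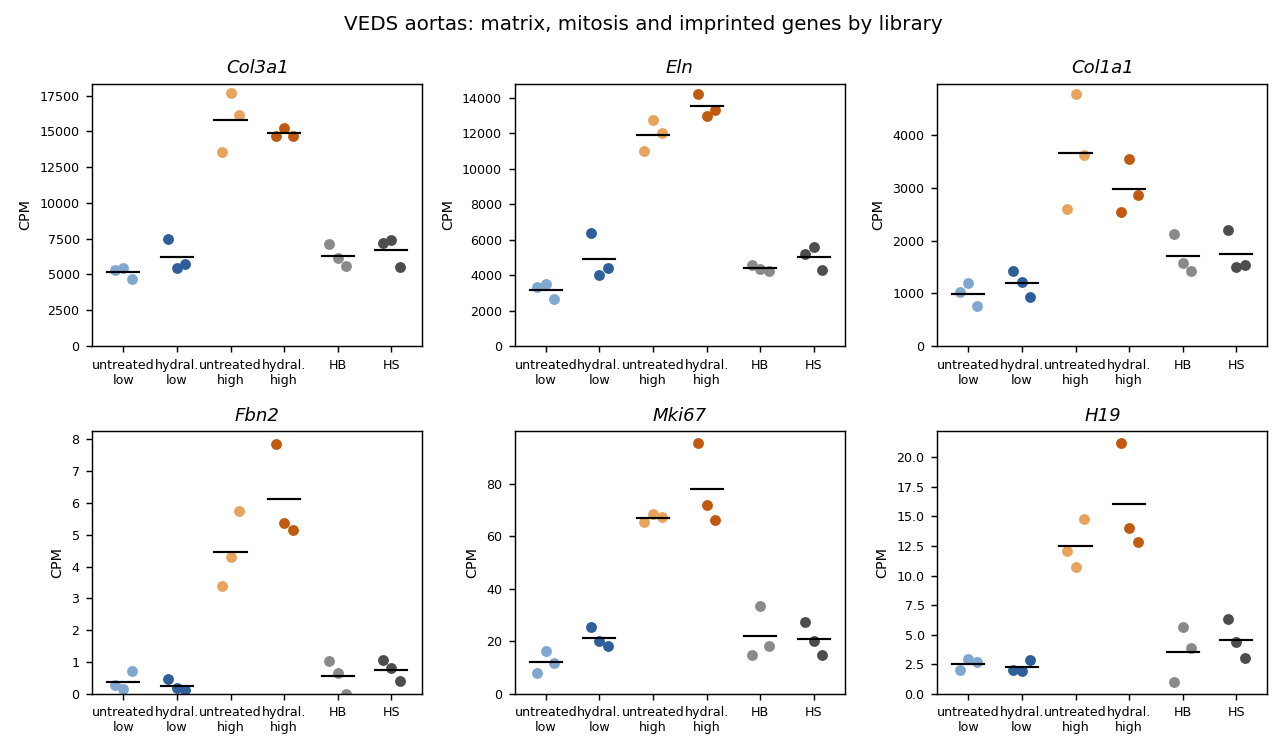
Level of 6 genes in each VEDS library in normalised CPM on linear axes from 0, one point per library and a bar at the mean of 3, in the classes of untreated and hydralazine aortas and in the HB and HS groups. In *Col3a1*, which made the classes, and in *Eln*, *Col1a1*, *Fbn2*, *Mki67* and *H19* the 6 matrix-high libraries lie above the 6 matrix-low libraries.

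Of the other fibrillar collagens, which form the load-bearing fibrils, 8 were tested, 7 were separated as higher and none as lower, with a median log2 fold change of 0.93 against 0.0012 over all genes. *Col1a1*, the main chain of type I collagen, was at 2547, 3203 and 4778 CPM in the matrix-high and 751, 1110 and 1426 CPM in the matrix-low libraries (1.61 ± 0.19, 3.05-fold). Its partner chain *Col1a2* was at 5291, 6400 and 7447 CPM against 2142, 2817 and 3465 CPM (1.20 ± 0.11, 2.31-fold). The chains of type V collagen, which sets fibril diameter, differed less in *Col5a1* (0.80 ± 0.08) and *Col5a2* (0.56 ± 0.08) than in *Col5a3* (1.06 ± 0.14). *Col11a1*, a minor chain better known from cartilage, showed the widest ratio of the list at a low level, 2.97 to 4.95 CPM against 0.347 to 1.09 CPM (2.70 ± 0.25). Only *Col11a2* overlapped, at 4.46 to 6.41 CPM against 2.46 to 6.05 CPM.

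Among 16 other interstitial collagens 8 were higher and 1 was lower. The beaded-filament chain *Col6a6* was at 87.3 to 128 CPM against 33.9 to 39 CPM (1.53 ± 0.10), and *Col6a3* at 1277 to 1749 CPM against 787 to 968 CPM (0.83 ± 0.07). *Col14a1* and *Col15a1*, collagens that link fibrils to each other and to basement membranes, differed by 0.87 ± 0.08 and 0.85 ± 0.08. *Col18a1*, whose cleaved end is endostatin, went the other way, at 982 to 1256 CPM against 1261 to 1553 CPM (−0.38 ± 0.08), and was not separated in TPM. *Col12a1*, a stress-associated collagen, overlapped (0.027 ± 0.15).

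The machinery that folds and trims collagen moved less than the collagens, with 5 of 29 genes higher, 1 lower and a median of 0.21. On the TPM scale 14 were higher, 1 was lower and the median was 0.39. *Adamts2*, the protease that removes the amino-terminal propeptide of fibrillar procollagens, was at 459, 561 and 597 CPM against 215, 258 and 306 CPM (1.10 ± 0.07, 2.15-fold). *Fkbp10*, a procollagen chaperone, was at 130 to 155 CPM against 91.5 to 108 CPM (0.48 ± 0.04). *Serpinh1*, the collagen chaperone HSP47, overlapped narrowly in CPM at 1191 to 1393 against 810 to 1193 (0.41 ± 0.08) and was separated as higher in TPM. *P3h2*, a prolyl 3-hydroxylase that modifies mainly basement membrane collagen, was instead lower, at 14.5, 17.5 and 21.3 CPM against 33.6, 42.3 and 48.3 CPM (−1.25 ± 0.10).

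The elastic fibre list held 26 tested genes, of which 10 were separated as higher and 1 as lower, with a median of 0.32. *Fbn2*, the fibrillin of developing microfibrils, was at 3.38, 5.25 and 7.86 CPM in the matrix-high and 0.129, 0.231 and 0.708 CPM in the matrix-low libraries (3.95 ± 0.34), the widest ratio among the matrix genes named here and one that rests on low counts in the matrix-low class. *Fbn1*, the fibrillin of the adult wall, differed by 0.74 ± 0.07 at 2259 to 2950 CPM against 1465 to 1893 CPM. The microfibril protein *Mfap2* was at 10.8 to 15.5 CPM against 2.61 to 5.76 CPM (1.70 ± 0.17). *Lox*, the lysyl oxidase that cross-links elastin and collagen, was at 762, 878 and 977 CPM against 341, 447 and 605 CPM (0.98 ± 0.12), and its relatives *Loxl1* and *Loxl2* were also separated as higher. *Ltbp1*, which stores latent TGF-β on microfibrils, was lower by a small margin (−0.33 ± 0.06) and not in TPM.

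In the basement membrane list 10 of 20 genes were higher, none was lower and the median was 0.34. *Lamb1*, a laminin chain, was at 83.5 to 111 CPM against 34 to 57 CPM (1.13 ± 0.12). *Nid1*, which bridges laminin and type IV collagen, was at 311 to 423 CPM against 187 to 243 CPM (0.93 ± 0.09), and *Col4a5* at 1568 to 1952 CPM against 884 to 1125 CPM (0.87 ± 0.07). The type IV chain *Col4a1* overlapped, at 1720 to 2116 CPM against 1243 to 1839 CPM, though it was separated in TPM.

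Proteoglycans and matricellular proteins were divided, with 7 of 32 higher and 6 lower in CPM, against 7 and 3 in TPM. *Sparc*, a collagen-binding glycoprotein of tissues that are laying down matrix, was at 4898, 5562 and 5843 CPM against 2282, 2907 and 3945 CPM (0.91 ± 0.10). *Ccn4* (1.22 ± 0.08), a Wnt-induced matricellular protein, and *Fras1* (1.61 ± 0.18), a basement membrane protein of the embryo, were also higher. *Comp*, cartilage oligomeric matrix protein, was the reverse, at 7.45, 9.13 and 12.2 CPM in the matrix-high and 38.5, 45.5 and 53.3 CPM in the matrix-low libraries (−2.27 ± 0.13, 4.82-fold higher in matrix-low). *Ccn3* (−0.73 ± 0.10) and *Prelp* were also lower, and *Ccn5*, *Ogn* and *Mgp*, the matrix inhibitor of calcification, were lower in CPM and not separated in TPM. Fibronectin (*Fn1*, 0.11 ± 0.09) and periostin (*Postn*, 0.16 ± 0.11) overlapped.

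Matrix proteases and their inhibitors likewise gave 6 higher and 4 lower of 30, against 7 and 2 in TPM. *Mmp2* (0.73 ± 0.10), a gelatinase, and *Mmp14* (0.73 ± 0.06), its membrane-bound activator, were higher together. *Adamts12* was at 108 to 154 CPM against 32.9 to 52.3 CPM (1.64 ± 0.12). The inhibitor *Timp3* was lower at 679 to 766 CPM against 1056 to 1255 CPM (−0.70 ± 0.06), as were stromelysin *Mmp3* at 18.8 to 32.1 CPM against 51 to 71 CPM (−1.30 ± 0.13). *Plat* and *Serpine2* were lower in CPM only.

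Of the mitosis genes 26 of 37 were higher and none lower, and their median of 1.83 was above that of every matrix list. Many promoters of late cell cycle genes carry CCAAT boxes, bound by NF-Y, and the CHR element TTTGAA, at which the DREAM and MuvB complexes act. The 200 bases before the RefSeq start of 4 separated mitosis genes are shown because their members moved together, 5′ to 3′ on the coding strand with CCAAT and TTTGAA in capitals in either orientation (ATTGG and TTCAAA are the reverse). They are *Mki67* (chr7:135716380-135716579, minus strand), *Top2a* (chr11:99024190-99024389, minus), *Cenpf* (chr1:189688087-189688286, minus) and *Kif11* (chr19:37376182-37376381, plus), from RefSeq on GRCm38.p6, while the counts were made on mm39.
Mki67: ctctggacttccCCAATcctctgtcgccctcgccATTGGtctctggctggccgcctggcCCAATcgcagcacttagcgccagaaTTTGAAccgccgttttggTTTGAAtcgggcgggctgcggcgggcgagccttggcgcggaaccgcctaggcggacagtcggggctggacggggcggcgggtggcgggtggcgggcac
Top2a: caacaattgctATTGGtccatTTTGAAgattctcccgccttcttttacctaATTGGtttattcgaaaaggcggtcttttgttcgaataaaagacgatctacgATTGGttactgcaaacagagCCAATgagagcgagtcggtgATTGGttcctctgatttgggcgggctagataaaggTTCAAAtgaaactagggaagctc
Cenpf: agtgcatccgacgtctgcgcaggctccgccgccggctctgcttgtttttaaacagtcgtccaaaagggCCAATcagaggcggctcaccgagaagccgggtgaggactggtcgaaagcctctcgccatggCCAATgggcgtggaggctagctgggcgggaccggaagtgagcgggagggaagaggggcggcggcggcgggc
Kif11: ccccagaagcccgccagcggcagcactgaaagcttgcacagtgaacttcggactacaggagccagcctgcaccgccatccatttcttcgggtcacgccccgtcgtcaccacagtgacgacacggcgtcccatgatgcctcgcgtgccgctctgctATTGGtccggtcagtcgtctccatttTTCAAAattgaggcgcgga

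CCAAT was found in 26 of the 31 mitosis promoters that could be matched (83.9%) and TTTGAA in 12 (38.7%), searching both strands, against 30% and 12.7% of the 27025 genes in the promoter table. The shares were 63% and 11.1% of 27 DNA replication promoters and 80.5% and 31.7% of 41 histone promoters. A match describes the letters and is not a binding site.

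*Top2a*, topoisomerase IIα, which untangles replicated chromosomes, was at 27.9, 33.9 and 42.7 CPM in the matrix-high and 3.45, 8.49 and 17.6 CPM in the matrix-low libraries (2.00 ± 0.26). *Cenpf*, a kinetochore protein, was at 12, 16.2 and 22.4 CPM against 1.42, 3.75 and 7.94 CPM (2.23 ± 0.30), and the spindle motor *Kif11* at 9, 10 and 14.2 CPM against 1.58, 2.47 and 4.67 CPM (1.90 ± 0.18). The kinase *Aurkb* (2.30 ± 0.35), the midzone protein *Prc1* (1.87 ± 0.21) and the kinetochore scaffold *Knl1* (1.89 ± 0.24) went the same way. *Anln*, a ring protein that also serves resting cells, was the 1 member with a negative value and overlapped (−0.37 ± 0.13).

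DNA replication genes were less marked, at 6 of 32 higher, none lower and a median of 0.56. Those higher were *Clspn* (1.79 ± 0.43), *Uhrf1* (1.54 ± 0.28), *Rrm2* (1.10 ± 0.22), *Ccne2*, *Chaf1a* and *Mcm2* (0.54 ± 0.17). *Mcm6*, a subunit of the same helicase as *Mcm2*, was at 60.1 to 67.1 CPM against 66.8 to 79.2 CPM and overlapped (−0.20 ± 0.05).

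Replication-dependent histones, whose mRNAs lack a poly(A) tail and were retained by the total RNA libraries, gave 25 of 46 higher, 1 lower and a median of 1.26. *H3c3* was at 4, 4.68 and 5.81 CPM against 0.567, 0.731 and 1.56 CPM (2.44 ± 0.19) and *H2bc12* at 5.11, 6 and 7.52 CPM against 0.85, 1.14 and 2.33 CPM (2.22 ± 0.19). *H2bc21* was lower (−0.39 ± 0.07) and was not separated in TPM. These genes are near-identical copies among which the counting could split reads, so the value of any single copy is uncertain.

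Of 17 imprinted growth genes 7 were higher and none lower. *H19*, a noncoding RNA expressed in fetal tissue, was at 10.7, 13.4 and 21.2 CPM in the matrix-high and 1.91, 2.36 and 2.92 CPM in the matrix-low libraries (2.54 ± 0.18, 5.83-fold). *Mest* was at 3.11 to 7.17 CPM against 0.85 to 2.49 CPM (1.74 ± 0.26), and *Plagl1* (0.79 ± 0.12), *Grb10* (0.63 ± 0.07), *Rian* (0.61 ± 0.07), *Mirg* and *Meg3* differed less.

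In the insulin-like growth factor axis 4 of 20 genes were higher and 1 was lower. *Igf1*, the growth factor itself, was at 199, 241 and 311 CPM against 82.8, 105 and 121 CPM (1.22 ± 0.12). The binding protein *Igfbp3* was at 5.28 to 12.1 CPM against 1.74 to 3.88 CPM (1.92 ± 0.25), and the RNA-binding protein *Igf2bp3*, largely of fetal tissue, at 1.57 to 4.64 CPM against 0 to 0.567 CPM (3.39 ± 0.49). *Igfbp6* was lower (−0.67 ± 0.10), though not separated in TPM.

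The contractile genes of smooth muscle went the other way by a smaller margin, with 16 of 30 lower, none higher and a median of −0.39. On the TPM scale 10 were lower, none was higher and the median was −0.21. *Tagln*, the actin-binding protein SM22α, was at 2198, 2467 and 3175 CPM in the matrix-high and 3479, 3734 and 4417 CPM in the matrix-low libraries (−0.60 ± 0.09). *Myh11*, the smooth muscle myosin heavy chain, was at 5983, 6535 and 7768 CPM against 8284, 9278 and 10632 CPM (−0.48 ± 0.08). *Acta2*, smooth muscle actin, was nearest to overlapping at 6904 to 8596 CPM against 8648 to 12020 CPM (−0.39 ± 0.09) and was not separated in TPM. The intermediate filament gene *Synm* had the largest difference, 33 to 39.1 CPM against 66.6 to 78.8 CPM (−1.01 ± 0.06), followed by *Nebl* (−0.81 ± 0.12), *Synpo2* (−0.66 ± 0.08) and *Des* (−0.60 ± 0.10).

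Adhesion and signalling lists were less uniform, and the signs of their medians changed between the scales. Integrins and adhesion genes gave 6 lower and 2 higher of 27, against 1 and 4 in TPM. *Itga1*, a collagen receptor chain, was at 190 to 237 CPM against 296 to 354 CPM (−0.52 ± 0.06), whereas *Itga4* (0.57 ± 0.08) and *Cdh11* (0.58 ± 0.09), an adhesion molecule of mesenchyme, were higher. Of 33 TGF-β and BMP genes 4 were lower and none higher, among them the receptor *Tgfbr1* at 152 to 198 CPM against 228 to 262 CPM (−0.44 ± 0.06). *Bmp6* (−0.57 ± 0.09) and *Inhbb* (−1.12 ± 0.23) were separated only in CPM. Of 18 growth factor receptors and ligands *Fgf1* was lower at 58.2 to 67.1 CPM against 98.6 to 115 CPM (−0.79 ± 0.05), and *Fgfr2* was lower in CPM only. Among 26 potassium and calcium channel genes *Cacna1g*, a T-type calcium channel, was higher (0.84 ± 0.15) and *Ryr2*, a calcium release channel, was among the 3 that were lower in CPM (−0.55 ± 0.11), none of them in TPM.

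*Nr3c2*, the mineralocorticoid receptor that spironolactone blocks, was at 25.8, 27.3 and 36.6 CPM in the matrix-high and 38.2, 46.6 and 54.5 CPM in the matrix-low libraries (−0.73 ± 0.10), without overlap in CPM and with overlap in TPM. No other gene of the 22 steroid receptors and targets was separated.

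**Figure D2:**
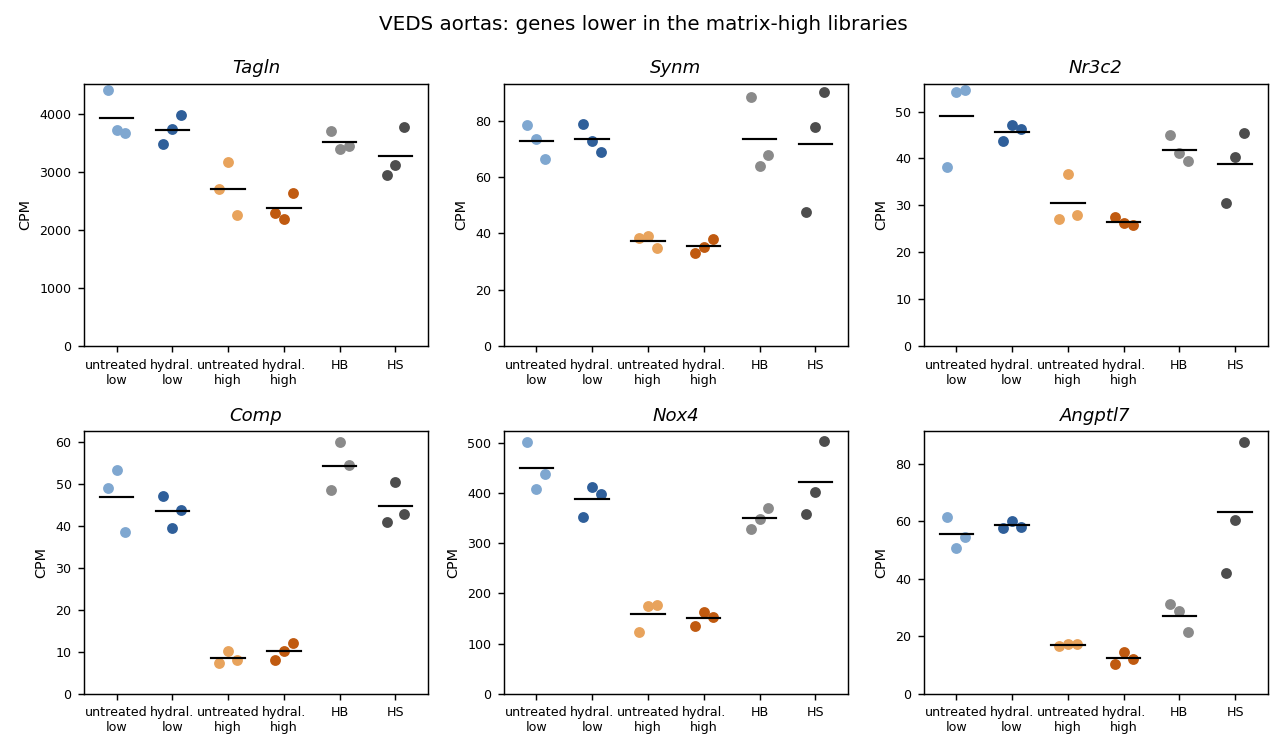
Level of 6 genes that were lower in the matrix-high libraries, in CPM on linear axes from 0, one point per VEDS library and a bar at the mean of 3, by class and group. The gap between classes is narrow for *Nr3c2* (36.6 against 38.2 CPM at its closest) and wide for *Comp* (12.2 against 38.5 CPM) and *Nox4* (178 against 352 CPM).

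Outside the lists, the largest differences at a mean of at least 5 CPM included further matrix genes. *Adamts17*, a secreted metalloprotease, was at 11.5, 14 and 20.7 CPM against 1.13, 2.4 and 2.88 CPM (2.66 ± 0.20), and *Cthrc1*, a secreted protein of active fibroblasts, at 3.79, 7.23 and 16.1 CPM against 0.567, 1.45 and 3.48 CPM (2.18 ± 0.33). *Nox4*, a hydrogen peroxide producing oxidase of the vessel wall, was lower at 122 to 178 CPM against 352 to 502 CPM (−1.43 ± 0.10, 2.70-fold higher in matrix-low). *Angptl7*, a secreted angiopoietin-like protein, was at 10.4 to 17.3 CPM against 50.8 to 61.4 CPM (−1.96 ± 0.11), and *Tafa1*, a secreted chemokine-like protein, at 0.683 to 3.28 CPM against 10.1 to 16.4 CPM (−2.63 ± 0.24). The potassium channel genes *Kcnc4* (−1.46 ± 0.21) and *Kcnq3* (−1.34 ± 0.20) were also lower, *Kcnq3* not in TPM. *Mup7*, a major urinary protein made by the liver and one of a family of near-identical genes, was at 0, 0.261 and 4.78 CPM in the matrix-high and 5.18, 86.5 and 280 CPM in the matrix-low libraries. All 10 hepatocyte markers had positive fold changes, so *Mup7* ran opposite to them. It was not separated in TPM, and its level in any single library is uncertain.

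Lists outside matrix and growth showed few separated genes. Of 22 cholesterol synthesis genes 3 were higher, including *Hmgcs1*, HMG-CoA synthase, at 133 to 313 CPM against 62.5 to 128 CPM (1.00 ± 0.21). The median of the list fell from 0.74 to 0.32 when the hepatocyte sum was a covariate, which was added after seeing the data. Fatty acid oxidation and the TCA cycle gave 2 of 30 higher and lipogenesis 1 of 20, yet every member had a positive fold change. Their medians, 0.46 and 0.38, were above those of the elastic fibre and basement membrane lists. That order turned with the hepatocyte sum as covariate: 0.35 and 0.33, against 0.39 for elastic fibre and 0.47 for basement membrane. None of 27 oxidative phosphorylation, 18 circadian clock, 22 ribosome biogenesis, 23 interferon response or 21 immediate early genes was separated. Of the oxidative phosphorylation genes 26 had a positive fold change (median 0.24), and of the immediate early genes 18 a negative one (median −0.37). Of 13 heat shock genes *Hspb1*, a small heat shock protein abundant in smooth muscle, was lower at 51.4 to 66.2 CPM against 75.4 to 180 CPM (−1.04 ± 0.19).

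**Figure D3:**
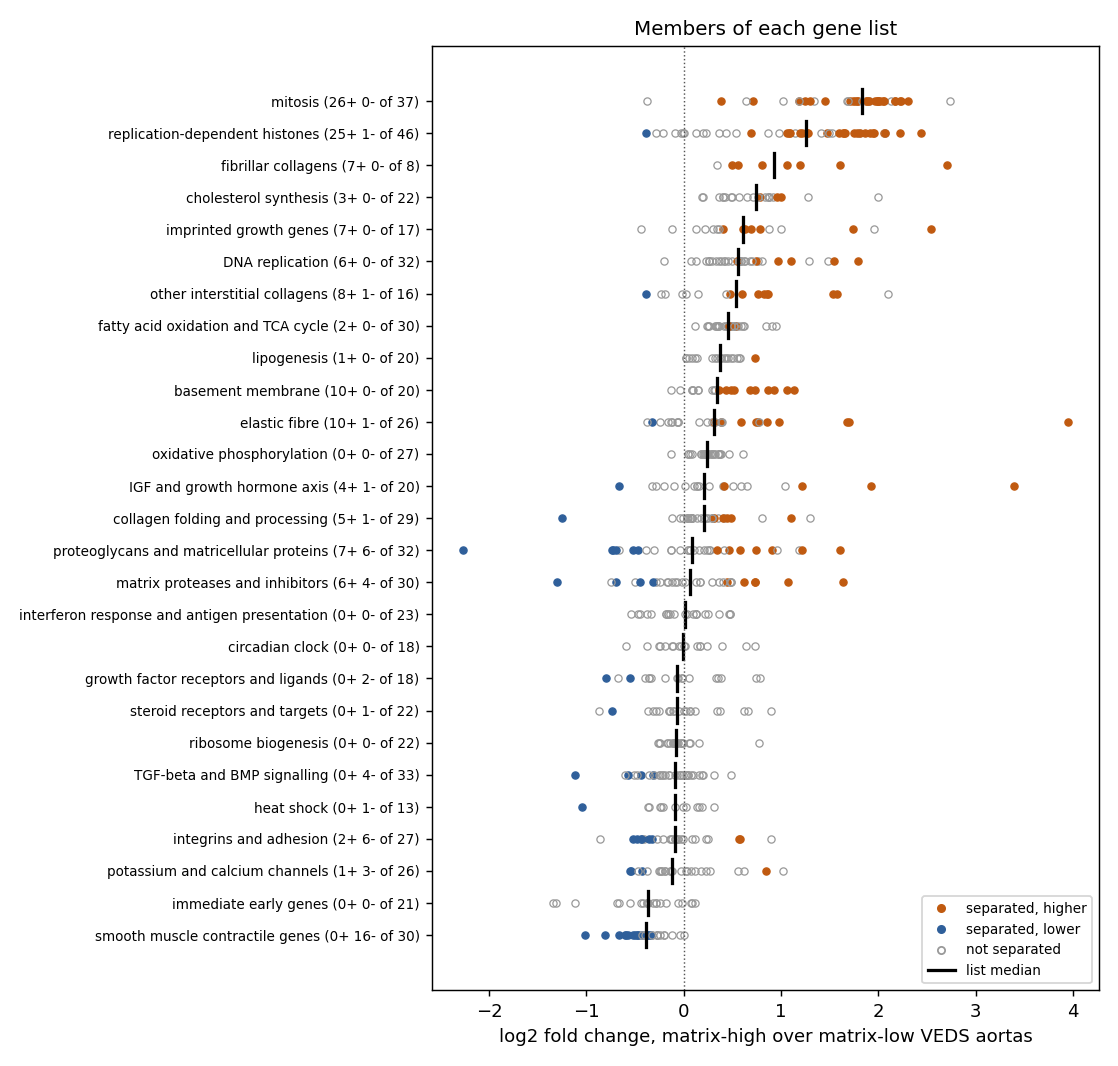
Log2 fold change of matrix-high over matrix-low VEDS aortas for each tested member of the gene lists, with the counts of separated members beside each list name, filled points for separated genes, open points for the rest and a bar at the list median. Medians run from 1.83 for mitosis to −0.39 for smooth muscle contractile genes.

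The same contrast was read within each treatment. *Eln* differed by 1.91 in untreated and 1.45 in hydralazine aortas, *Col1a1* by 1.89 and 1.33, and *Mki67* by 2.49 and 1.87. The mitosis median was 2.08 without and 1.50 with hydralazine, the fibrillar collagen median 1.02 and 0.84, and the contractile median −0.37 and −0.40. *Fbn2* (3.46 and 4.50) and *H19* (2.30 and 2.78) ran the other way, and whether the treatments differ in these values was not tested. Within hydralazine the classes also differed in hepatocyte RNA without overlap, and its part in these values was not tested.

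In the control aortas, divided at the same *Col3a1* value, 460 genes were higher (3.47%) and 506 lower (3.82%) of 13251. Of the genes tested in both genotypes, 216 were separated as higher in both (52.3% of the VEDS and 47.4% of the control list) and 259 as lower in both (52% and 51.4%). The sign in controls was that of VEDS for 410 of the higher and 497 of the lower VEDS genes, all but 3 and 1 of those tested. The share of equal signs over all 13144 genes tested in both genotypes was not computed, so these counts have no background. *Eln* differed by 1.96 ± 0.18 in controls beside 1.68 ± 0.13 in VEDS, *Mki67* by 2.46 ± 0.35 beside 2.17 ± 0.17, and *Col1a1* by 2.23 ± 0.14 beside 1.61 ± 0.19. *Comp* was lower by less in controls (−1.49 ± 0.12) than in VEDS (−2.27 ± 0.13).

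A test of the difference between genotypes, the interaction of genotype and class over all 24 untreated and hydralazine libraries, called none of 13611 genes by edgeR's quasi-likelihood test with Benjamini-Hochberg adjustment. There were 470 genes at an unadjusted p under 0.05, the smallest adjusted p was 0.542, and DESeq2 called only *Cpz*, a secreted carboxypeptidase (−0.94, adjusted p = 0.023). For *Comp* the difference was −0.77 ± 0.18 (unadjusted p = 0.0002713, adjusted p = 0.973, edgeR) and for *Col1a1* −0.62 ± 0.24 (adjusted p = 1, edgeR). These values do not show that the genotypes were alike. Class is not a label but was made from *Col3a1* in the same libraries, so the p-values of this interaction are descriptive only.

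**Figure D4:**
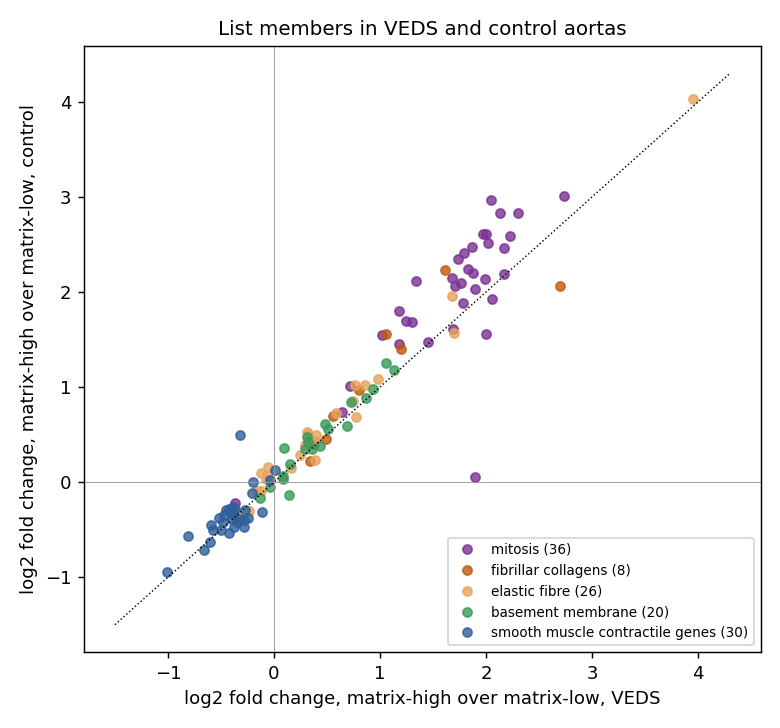
Log2 fold change of matrix-high over matrix-low aortas in VEDS (horizontal) and in controls (vertical) for members of 5 gene lists, with a dotted line of equal values. Most mitosis genes lie up and right of the matrix genes and the contractile genes lie at the lower left in both genotypes.

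Hydralazine was compared with no treatment within VEDS, with class as a covariate, and edgeR called none of 13310 genes (0%). At an unadjusted p under 0.05 there were 984 genes, the smallest adjusted p was 0.122, and DESeq2 called 16. *Eln* was 0.41 ± 0.13 higher with hydralazine (adjusted p = 0.614, edgeR) and *Mki67* 0.48 ± 0.17 higher (adjusted p = 0.614, edgeR), both below the differences between the classes. *Fbln2*, a fibulin of the elastic fibre, had the second smallest p (0.43 ± 0.07, adjusted p = 0.239, edgeR).

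The HB and HS libraries, none of which had *Col3a1* above the cut, were placed between the classes gene by gene. Of the 421 genes higher in the matrix-high class, 69 had all 6 HB and HS libraries at or below the highest matrix-low library, 201 had none at or above the lowest matrix-high library, and 2 had all 6 there. For the 500 lower genes the corresponding counts were 87, 206 and 2. At least 1 HB or HS library thus reached the matrix-high class in 220 of the higher and 294 of the lower genes. *Eln* was at 4235 to 5606 CPM, inside the range of the matrix-low class, and *Mki67* at 14.6 to 33.3 CPM, its highest value lying between the classes. *Col1a1* (1416 to 2210 CPM), *Igf1* (61.1 to 169 CPM) and *Fgf1* (54.1 to 97.5 CPM) reached out of the matrix-low range, and all 6 values of *Fgf1* lay below it, as far down as the matrix-high class.

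**Figure D5:**
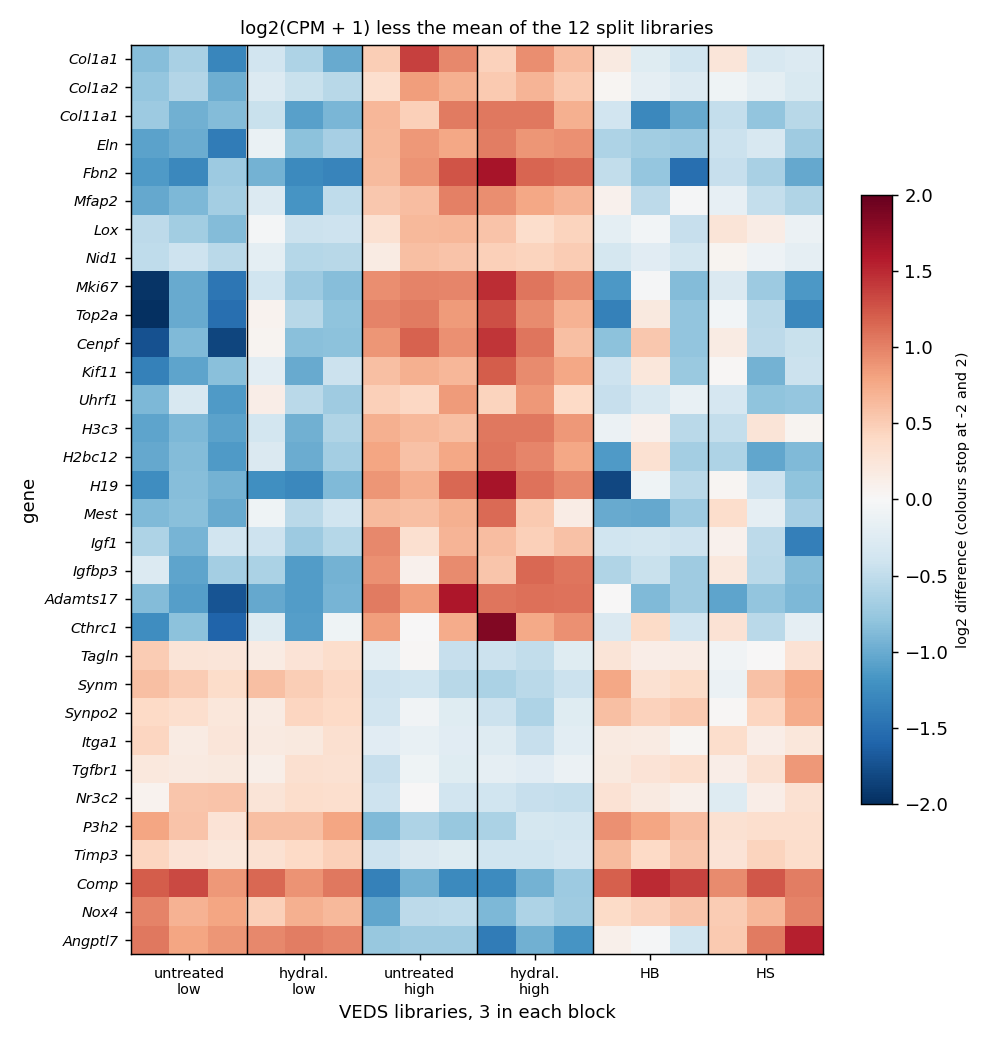
Level of 32 named genes in the 18 VEDS libraries as log2(CPM + 1) less the mean of the 12 libraries that were divided, red above and blue below that mean. Blocks of 3 libraries stand for matrix-low untreated, matrix-low hydralazine, matrix-high untreated, matrix-high hydralazine, HB and HS. For these genes, a selection that does not stand for all separated genes, most HB and HS cells have the sign of the matrix-low blocks.

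Against all 6 VEDS hydralazine libraries, of which 3 were matrix-high, the HB and HS libraries differed in 168 of 12901 genes (1.3%), 16 higher and 152 lower, by edgeR's quasi-likelihood test at an adjusted p of 0.05 or less. Of the separated genes only *H2bc11*, a histone copy, fell among the higher ones (−1.60 ± 0.36, adjusted p = 0.0483), and *Sema3d*, a secreted guidance protein, was the 1 lower gene that rose (0.48, adjusted p = 0.0483), to 216 to 248 CPM against 175 to 203 CPM in the matrix-low libraries. Both were named after their values were seen. The count was 0 without HB replicate 3, so neither call held there, it was 4 or fewer without any 1 of 7 other libraries, and DESeq2 called 610 genes. *Eln* (−0.97 ± 0.30, adjusted p = 0.115, edgeR) and *Mki67* (−1.22 ± 0.40, adjusted p = 0.139, edgeR) did not pass. *Nr3c2* (0.16 ± 0.17, adjusted p = 0.680, edgeR) did not pass either. Among the genes that fell were 7 of the 10 hepatocyte markers, whose sum was 258.6 to 2292 CPM in HB and HS. With that sum as a covariate, added after seeing the data, 28 genes were called, 26 higher and 2 lower. Of these 28 genes, 2 were shared with the 168. Drug, age and class cannot be told apart in this comparison.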

How the data were processed

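Total RNA of descending thoracic aortas was sequenced as stranded libraries, 1 mouse each. Per the labels and the study's methods the authors made base calls with CASAVA 1.8.4, aligned to mm39 and quantified with RSEM. The deposited expected counts are RSEM estimates per gene and were not normalised by the authors; they were whole within 1e-06 for 97.6% of values and were rounded for fitting. The deposited TPM values are the authors' per-length scaling to a common sum and served as an alternative only.

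Groups came from the labels. The matrix-high and matrix-low classes were made from *Col3a1* CPM at a cut of 10000, so their differences were not tested. The classes, gene lists and named genes were chosen with earlier results of these data known. Genes were filtered and TMM-scaled with edgeR 4.0.16 in R 4.3.3, and fitted by quasi-likelihood with treatment as covariate. Standard errors were the size of the log2 fold change divided by the square root of the F statistic of the fit. Named genes were *Eln*, *Mki67* and *Nr3c2*, the 12 highest and 12 lowest separated genes at 5 CPM or more, up to 6 separated and 2 other members of each list, and genes called or of smallest p in a test; further members were named after their values were seen, and some genes under this rule are not reported here. Labelled groups, and the interaction of genotype with class, were tested by edgeR with Benjamini-Hochberg adjustment (0.05) and by DESeq2 1.42.0. Alternatives changed scaling, filter, cut, covariate and libraries. Scripts were tested on simulated counts. Ages and extraction batches per library were not used here, since the labels do not give them. Promoters were read from RefSeq (GRCm38.p6), and no coordinates were converted to mm39. Replicates are separate mice.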

Additional observations from a re-analysis of the deposited data

Results flagged for a closer look

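Within a class of 6 VEDS libraries, the highest or lowest value of a named gene or marker sum stood apart from the other 5 in 16 of the 236 sets examined, by the ratio of its gap to the range. Chance gives such a gap in about 1 of 20 sets, so the number is not a pattern in itself.

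In the matrix-high class, hydralazine replicate 3 had the highest level of *Mki67* (95.49 CPM, the others 65.53 to 71.69) and of *Cthrc1* (16.06 CPM, the others 3.793 to 7.979), and hydralazine replicate 5 the lowest level of the condensin subunit *Smc2* (13.79 CPM, the others 18.1 to 19.69). Untreated replicate 5 stood above the other matrix-high libraries in *Postn* (4101 CPM, the others 2730 to 3078) and *Nr3c2* (36.61 CPM, the others 25.83 to 27.85). Untreated replicate 6 was highest in *Adamts17* (20.72 CPM, the others 11.54 to 14.16) and in the summed brown adipocyte markers (1315 CPM, the others 556.2 to 804.6). Untreated replicate 4, the library with the most hepatocyte RNA, was lowest in *Adamts2* (458.6 CPM, the others 546.3 to 597.1).

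In the matrix-low class, hydralazine replicate 1, the library nearest the *Col3a1* cut, was highest in *Col5a3* (34.71 CPM, the others 19.83 to 23.23), *Knl1* (5.447 CPM, the others 1.563 to 2.918) and *Inhbb* (5.758 CPM, the others 2.779 to 3.839). Untreated replicate 3 was lowest in *Col5a1* (530.6 CPM, the others 623.8 to 674), *Adamts17* (1.133 CPM, the others 2.258 to 2.876) and *Mcm2* (5.807 CPM, the others 7.468 to 7.985). Untreated replicate 1 was lowest in *Lama2* (324.7 CPM, the others 367.5 to 381.5) and *Plagl1* (5.752 CPM, the others 8.404 to 9.657).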

How the results depend on the processing

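The counts of 421 higher and 500 lower genes stayed within 1.5 times under other size factors, totals, filters, cuts, no covariate and no overlap within each treatment. At a log2 fold change of 1 they were 154 and 44, by construction, and on the deposited TPM values 1119 and 152. Leaving out each library in turn gave 455 to 571 and 529 to 662, with 415 to 419 and 482 to 496 of the original genes shared.

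DESeq2 called 16 genes for hydralazine, 1 for the difference between genotypes and 610 for HB and HS, where edgeR called 0, 0 and 168; leaving out single libraries left both edgeR counts of 0 at 0. The HB and HS count moved with every library left out, from 0 to 515: it was 0 to 4 without hydralazine replicate 3, 4 or 5, HS replicate 2 or 3 or any HB library, and 345 to 515 without hydralazine replicate 1, 2 or 6 or HS replicate 1. With the hepatocyte sum as covariate it was 28, and the liver genes *Vtn* (0.0161) and *Slc38a4* (0.153) turned positive. The cause was not tested. No paired analysis was possible because replicate numbers were given in accession order and pair no libraries. Values near 1 CPM rest on few reads. Errors of the class differences cover 6 mice per class, and errors of the tests cover the libraries of each test.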
